A study of Rattus norvegicus with 8 samples.

Results

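The translation initiation and elongation factors are the proteins that start and extend protein synthesis on the cytosolic ribosome, and their genes were followed here in the hippocampus of rats fed coral calcium hydride (CCH). Members were all non-control array probes whose RefSeq accession mapped to a gene symbol beginning with Eif and a digit from 1 to 6, or with Eef. The rule found 81 probes for 49 genes, out of 41012 probes and 12206 named genes on the array. It used no measured value. Total RNA came from the hippocampus of 8 male Wistar rats, 1 Agilent 1-colour array per rat. The 4 control rats ate the standard CE-2 feed, and the 4 CCH rats ate CE-2 feed with 0.1% CCH powder, a mineral powder made from coral calcium that carries hydrogen. All rats were 6 weeks old when they were assigned and 8 weeks old when they were killed. The study's title asks what CCH does to antioxidant ability in the brain.

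Initiation begins when eIF2, carrying GTP and the initiator tRNA, joins the small ribosomal subunit together with eIF1, eIF1A, eIF3 and eIF5. The eIF4 factors bind the messenger's cap and unwind its leader, and mTOR signalling controls this step through the eIF4E-binding proteins. Stress kinases phosphorylate eIF2alpha and block its recycling by eIF2B, which lowers most translation and favours messengers such as that of ATF4. Elongation then needs eEF1A to deliver tRNAs and eEF2 to move the ribosome, and the calcium-dependent kinase eEF2K switches eEF2 off. In hippocampal neurons local control of these steps is known for its part in lasting synaptic change and memory.

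The 4 control arrays lay on slide 1 and were read in scan 1, and the 4 CCH arrays on slide 2 in scan 2. An effect of the slide or the scan therefore cannot be told apart from one of the feed. The samples' description field names a Parkinson's disease model, which contradicts their titles and treatment labels. Groups were taken from the titles. The 75th percentile of the processed signal ran from 563 to 700 on the control arrays and from 642 to 882 on the CCH arrays, with 76.3% to 79.9% of spots detected well above background and 0 saturated. Precision is limited by having 4 arrays per group. Of 10 fixed markers of hippocampal neurons 9 had a tested probe, and each was well above background on all 8 arrays. CCH replicate 1 stood apart from the rest: it held the lowest or the highest of the 8 values in 51.5% of all tested named genes and in 64.6% of the translation factor genes (18 times the lowest and 13 times the highest of 48 genes with 8 values). Marker lists of other cells differed in how far they leaned to one side. Astrocyte markers were 4 higher and 3 lower in CCH, endothelium and pericyte markers 4 and 4, and interneuron markers 3 and 3. Oligodendrocyte precursor markers were 4 higher and 1 lower, with a median log2 difference of 0.23. Of them 2 had an unadjusted limma p under 0.05, each higher, and 0 were called. Their mean log2 deviations ran from -0.18 to -0.09 in controls and from -0.05 to 0.28 in CCH, without overlap. The 3 lists that follow also leaned to one side, with 0 genes called by limma in them. Oligodendrocyte markers were higher in CCH for 10 of 11 genes (median log2 difference 0.35), microglia markers lower for 8 of 10 (median -0.19) and choroid plexus and ependyma markers lower for 10 of 10 (median -2.23). At an unadjusted limma p under 0.05 stood 6 oligodendrocyte markers, all higher, 3 microglia markers, all lower, and 0 choroid plexus markers. As mean log2 deviations over each list, oligodendrocyte markers ran from -0.28 to -0.02 in controls and from 0.02 to 0.32 in CCH, microglia markers from 0.00 to 0.14 and from -0.18 to 0.04, and choroid plexus markers from -0.56 to 1.99 and from -3.51 to 1.5. Of these 3 lists, the groups overlapped in the microglia and choroid plexus lists and not in the oligodendrocyte list. The low choroid values of -3.47 and -3.51 were those of CCH replicates 2 and 4. The part of these cell types in the differences below was not tested, and in whole tissue fewer cells of a type and less RNA per cell cannot be told apart.

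No translation factor gene passed the test between the feeds. A log2 level below is the log2 of the processed signal minus the array's 75th percentile, so that 0 is the brightness of that percentile, and a log2 difference is CCH minus control from limma. After Benjamini-Hochberg adjustment across the 31617 probes tested, 0 of the 81 member probes were called at an adjusted p under 0.05, against 0.174% of all tested probes (55). All 81 probes passed the filter on dim signals, and 80 of them were well above background on every array. The calls over all probes were 0.0759% higher and 0.098% lower. At an unadjusted limma p under 0.05 stood 13 of the 81, or 16.0%, against 15.4% of all tested probes. Of these 13, 5 were higher and 8 lower in CCH, where 8.79% and 6.59% of all tested probes were. The groups did not overlap in 13 member probes, 5 higher and 8 lower in CCH, a share of 16.0% against 11.3% of all tested probes. With 1 probe per gene, the brightest, 26 of the 49 genes were higher and 23 lower, with a median log2 difference of 0.01, beside 0.01 and 46.9% lower over all 9744 tested named genes. On that probe 5 of 49 genes (10.2%) reached an unadjusted p under 0.05, against 13.9% of named genes. They were 2 higher and 3 lower, where 7.39% and 6.55% of named genes were. The groups did not overlap in 6 genes (12.2%), against 11.1%.

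On the brightest probe, the size of a possible difference between the groups was bounded for most genes. Its 95% interval lay within 0.5 log2 units, or 1.41-fold, on either side of 0 for 40 of the 49 genes. It lay within 1 log2 unit for all 49. The interval reached a median of 0.23 to either side of the estimate. Other probes of some of the 40 genes reached further. Probe A_44_P1059795 of Eif2s2 had an interval of -0.87 to -0.07, and A_44_P455108 of Eif1 one of -0.00024 to 0.64. The intervals reflect the spread between arrays and cannot separate the feed from the slide or the scan. Members varied less between rats than named genes in general, with a median SD of 0.09 in controls and 0.14 in CCH against 0.14 and 0.19, and their probes were also brighter, at a median log2 level of 2.28 against -0.37. An adjusted p above the threshold does not show that the feeds gave equal levels.

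**Figure D1:**
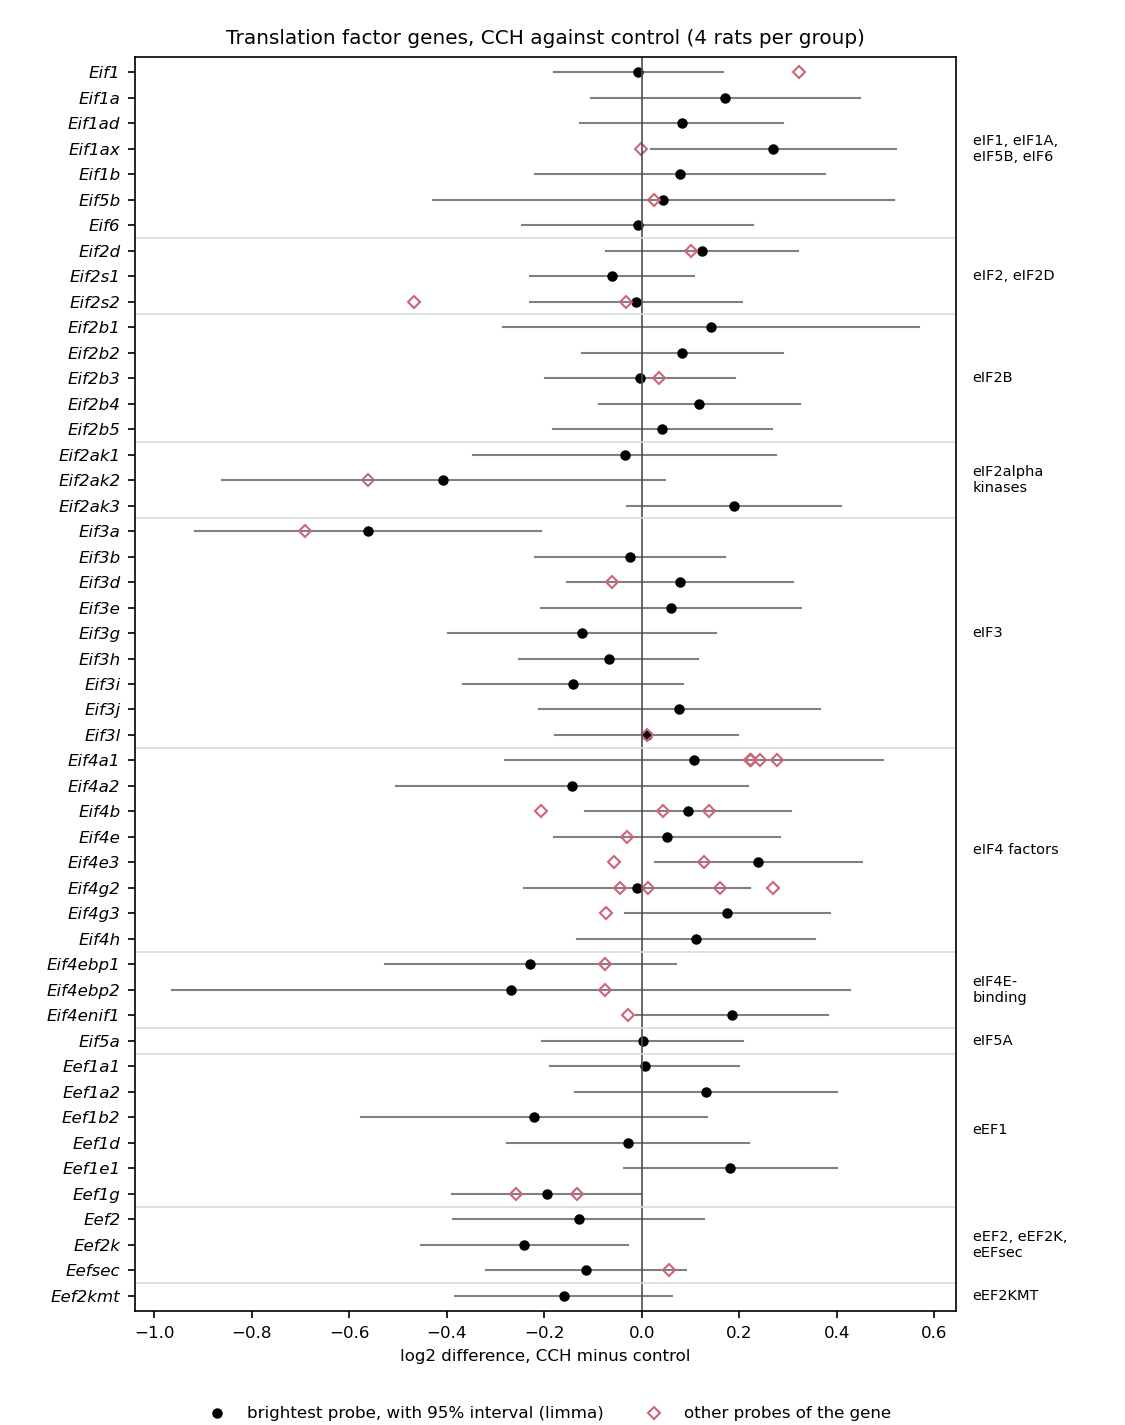
Log2 difference between CCH and control rats for the 49 translation factor genes, grouped by role, with 4 rats per group. Black points with 95% intervals are the brightest probe of each gene and open diamonds its other probes. Both probes of Eif3a and of Eif2ak2 lie at -0.41 or further to the left, all 5 probes of Eif4a1 lie to the right of 0, and most other intervals span 0.

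The largest difference among the members was that of Eif3a, which encodes the largest subunit and scaffold of eIF3, the complex that holds the messenger and the small ribosomal subunit together. Its probe A_44_P312309 stood at log2 levels of 2.53, 2.37, 2.31 and 2.31 in control replicates 1 to 4 and at 1.51, 1.86, 1.82 and 1.58 in CCH replicates 1 to 4. All 4 CCH rats lay below all 4 controls by a clear gap. The log2 difference was -0.69 ± 0.11 (SE, limma adjusted p = 0.0562), a level 1.61-fold lower in CCH that stayed just above the threshold. The gene's brightest probe, A_44_P1037526, was at 3.26, 3.26, 3.09 and 3.12 in the controls and at 2.20, 2.81, 2.91 and 2.57 in CCH. The groups were again separate, with CCH replicate 1 the lowest, and the difference was -0.56 ± 0.16 (SE, limma adjusted p = 0.149). The mean of both probes differed by -0.63 ± 0.13 (SE, limma adjusted p = 0.0777). Probe A_44_P312309 was called at -0.63 without CCH replicate 1 (limma adjusted p = 0.0398), while leaving out any other 1 array gave an adjusted p between 0.109 and 0.156. Without CCH replicates 2 and 4, the rats low in choroid plexus markers, the differences were -0.72 and -0.63 on the dimmer and the brighter probe. This choice was made after seeing the data and left only CCH replicates 1 and 3. The limma adjusted p of the dimmer probe was then 0.313. The part of choroid plexus cells in the Eif3a difference was not tested.

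The other 8 measured eIF3 subunit genes lay close to 0 on their brightest probes, with 4 higher and 4 lower. Eif3i, another subunit of the core, differed by -0.14 ± 0.10 (SE, limma adjusted p = 0.549). Eif3b, which with Eif3a forms the base of the complex, was at -0.02 with a 95% interval of -0.22 to 0.17, and Eif3l was at 0.01 on both of its probes. The difference between Eif3a and the other subunits was not tested. In its 250 bases upstream of the RefSeq start none of the response elements searched here was present. The 100 bases before the start (GRCr8, chr1:269919026-269919125, minus strand), 68.0% G or C, are shown because this gene leads the members, and no letters are in capitals because no searched motif was found:
Eif3a: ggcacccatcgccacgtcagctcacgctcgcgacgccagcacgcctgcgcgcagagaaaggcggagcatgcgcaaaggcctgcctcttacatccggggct

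Of the eIF2alpha kinases, Eif2ak2 and Eif2ak3 lay on opposite sides. Eif2ak2 encodes PKR, the kinase switched on by double-stranded RNA and induced by interferon. Its dimmer probe A_44_P313825 stood at -2.21, -2.58, -2.42 and -2.55 in control replicates 1 to 4 and at -3.12, -2.70, -3.01 and -3.18 in CCH replicates 1 to 4. All CCH rats lay below all controls on that probe, with a difference of -0.56 ± 0.13 (SE, limma adjusted p = 0.107). The brighter probe A_42_P467037 was at 0.06, 0.27, -0.63 and -0.27 in controls and at -0.68, -0.65, -0.26 and -0.62 in CCH. There the groups overlapped, since control replicate 3 lay among the CCH rats and CCH replicate 3 among the controls, and the difference was -0.41 ± 0.20 (SE, limma adjusted p = 0.378). Eif2ak3 encodes PERK, the kinase that senses unfolded proteins in the endoplasmic reticulum. It was at -2.60, -2.57, -2.52 and -2.52 in controls and at -2.14, -2.44, -2.44 and -2.44 in CCH. The groups did not overlap, but CCH replicate 1 stood far above the other CCH rats. The difference of 0.19 ± 0.10 (SE, limma adjusted p = 0.40) was 0.11 without that replicate and 0.05 with normexp background correction. Eif2ak1, the haem-regulated kinase, was at -0.04 ± 0.14 (SE), and Eif2ak4 had no named probe here.

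The promoter of Eif2ak2 carried the core of the interferon-stimulated response element just before its start. That motif, GAAA repeated after a gap of any 2 bases, searched on both strands of the 250 bases before the start, was found in 2 of the 43 member genes with a RefSeq promoter (Eif2ak2 and Eif6) and in 3.41% of all 33469 promoters in the table. It is shown in capitals in the 100 bases before the start (GRCr8, chr6:21941054-21941153, plus strand), as the known route to interferon control of this gene:
Eif2ak2: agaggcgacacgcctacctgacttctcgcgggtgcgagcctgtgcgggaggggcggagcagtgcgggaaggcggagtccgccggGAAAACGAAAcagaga

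The kinases' target and its recycling factor held no gene at an unadjusted limma p under 0.05 on its brightest probe. Eif2s1, which encodes eIF2alpha itself, was at 0.03, 0.06, 0.00 and 0.02 in controls and at -0.07, 0.03, -0.05 and -0.05 in CCH. The groups overlapped through CCH replicate 2, and the difference was -0.06 ± 0.07 (SE, limma adjusted p = 0.743; 95% interval -0.23 to 0.11). Of the 5 eIF2B subunit genes 4 were higher and 1 lower, with a median of 0.08, and Eif2b5, the catalytic subunit, was at 0.04 ± 0.10 (SE). Eif2b1 had the widest 95% interval of them, from -0.28 to 0.57, since CCH replicate 1 stood at -0.23 and all other rats between -1.19 and -0.80. Eif2d, which can bring initiator tRNA to the ribosome outside the eIF2 route, was at 0.12 and 0.10 on its probes. The beta subunit gene Eif2s2 had 3 probes that differed among themselves: the brightest was at -0.01 and the dimmest at -0.03, while A_44_P1059795 was at -0.47 ± 0.17 (SE, limma adjusted p = 0.252). On that probe CCH replicate 1 stood at 2.89, the other CCH rats between 3.49 and 3.71, and the controls between 3.73 and 4.01.

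**Figure D2:**
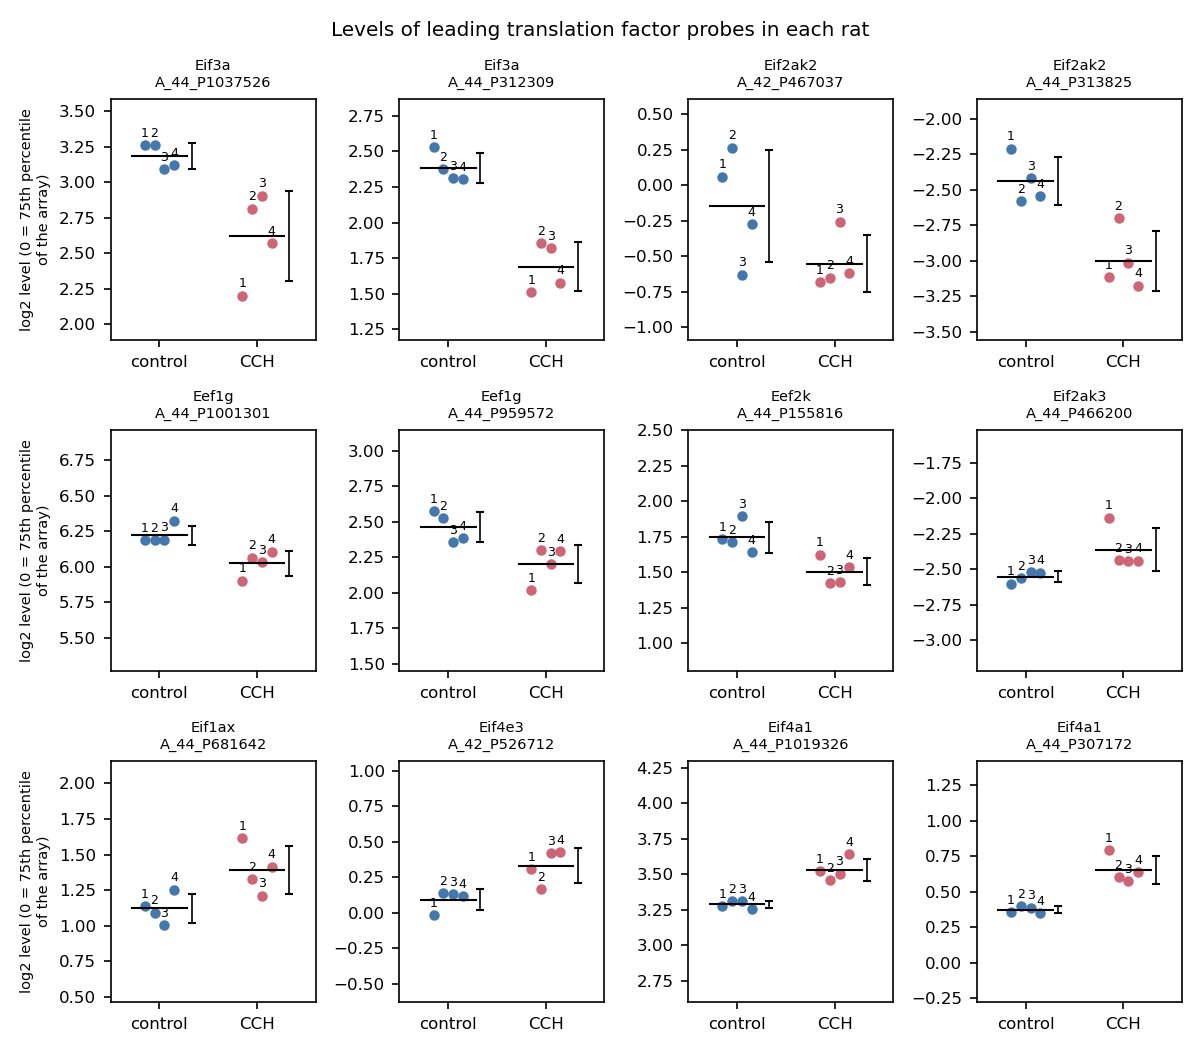
Log2 level in each rat for 12 probes of 8 translation factor genes. A level of 0 is the 75th percentile of the array, and every panel spans 1.7 log2 units. Of the 5 Eif4a1 probes only those without overlap between the groups are shown. Probes of Eef1g, Eif1ax and Eif4e3 with smaller differences are left out. Points are rats with their replicate numbers, horizontal lines group means and error bars SD (n = 4). Both Eif3a probes show CCH rats between 1.51 and 2.91 below the controls of the same probe, and the brighter Eif2ak2 probe shows overlapping groups.

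Among the factors that select the start codon and join the subunits, 5 of 7 genes were higher and 2 lower, with a median of 0.08. Eif1ax, one of the rat genes for eIF1A, which scans for the start codon with eIF1, was at 1.13, 1.09, 1.00 and 1.25 in controls and at 1.61, 1.33, 1.21 and 1.41 in CCH. Only CCH replicate 3 reached into the control range, and the difference was 0.27 ± 0.11 (SE, limma adjusted p = 0.292). Its other probe was at -0.0010 ± 0.11 (SE). Eif1a, the related eIF1A gene, was at 0.17 ± 0.12 (SE, limma adjusted p = 0.552). Eif6, which keeps free large subunits from joining, was at -0.01 with a 95% interval of -0.25 to 0.23. Eif1, which guards the accuracy of start codon choice, differed between its probes. The bright probe was at -0.01 ± 0.08 (SE), and the dim probe A_44_P455108 was at -1.37, -1.37, -1.25 and -1.34 in controls and at -1.43, -0.87, -0.88 and -0.85 in CCH. On the dim probe CCH replicate 1 lay below the controls and the other CCH rats above them. Its difference of 0.32 ± 0.14 (SE, limma adjusted p = 0.325) became 0.46 and was called without CCH replicate 1 (limma adjusted p = 0.0354), and 0.43 with array weights (limma adjusted p = 0.0317), where CCH replicate 1 had a weight of 0.185.

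The eIF4 factors, which bind the cap and unwind the leader, were higher for 6 and lower for 2 of 8 genes, with a median of 0.10. The helicase gene Eif4a1 had 5 probes, and all 5 were higher in CCH, by 0.11 to 0.28. Probe A_44_P307172 stood at 0.35, 0.40, 0.39 and 0.35 in controls and at 0.79, 0.60, 0.57 and 0.64 in CCH. Probe A_44_P1019326 stood at 3.27, 3.31, 3.31 and 3.25 in controls and at 3.52, 3.46, 3.5 and 3.64 in CCH. Both separated the groups, with differences of 0.28 ± 0.08 and 0.24 ± 0.08 (SE, limma adjusted p = 0.171 and 0.198). The brightest probe, A_43_P11246, differed by 0.11 ± 0.17 (SE, limma adjusted p = 0.816), because CCH replicate 1 was the lowest of all 8 rats at 5.66 and CCH replicate 4 the highest at 6.42. Without CCH replicate 1 it was at 0.27, and without CCH replicates 2 and 4 at -0.06. The mean of the 5 probes differed by 0.21 ± 0.08 (SE, limma adjusted p = 0.250). The probes of a gene share its RNA and are not independent samples.

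The promoter of Eif4a1 held a TATA box core, TATAA, searched on the transcribed strand from 45 to 15 bases before the start. It was present in 5 of 43 member genes (Eef1a1, Eef1b2, Eif1, Eif4a1 and Eif4a2), or 11.6%, and in 3.08% of all promoters in the table. The 100 bases before the start (GRCr8, chr10:54888603-54888702, minus strand) have it in capitals, and are shown because this gene was higher on each of its probes:
Eif4a1: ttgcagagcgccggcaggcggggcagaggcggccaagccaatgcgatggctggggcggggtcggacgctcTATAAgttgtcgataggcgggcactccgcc

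**Figure D3:**
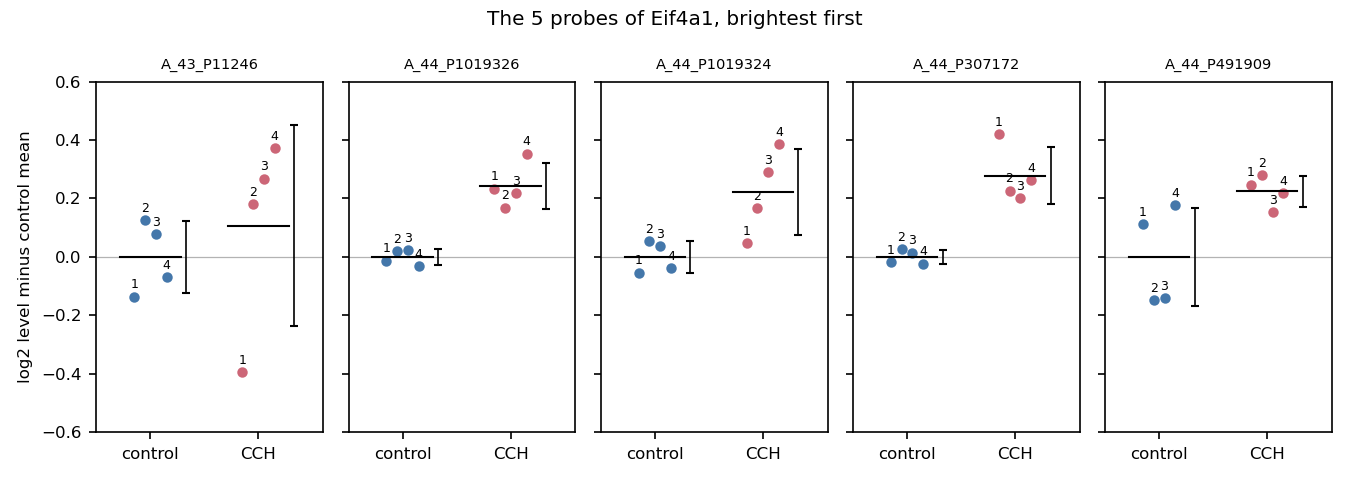
Log2 level minus the control mean in each rat for the 5 probes of Eif4a1, ordered from the brightest to the dimmest. Points are rats with their replicate numbers, lines group means and error bars SD (n = 4). All CCH means lie above 0, and CCH replicate 1 falls below the controls only on the brightest probe.

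Its sister gene Eif4a2, the helicase form rich in brain, had 1 probe, at 6.11, 6.32, 6.25 and 6.26 in controls and at 5.62, 6.15, 6.28 and 6.32 in CCH. CCH replicate 1 was again the lowest, and the difference of -0.14 ± 0.16 (SE, limma adjusted p = 0.722) went to 0.01 without it. Eif4e, the cap-binding protein gene, was at 0.05 ± 0.10 (SE) with a 95% interval of -0.18 to 0.29, and at -0.03 on its other probe. Eif4e3, a cap-binding variant, was at -0.02, 0.13, 0.13 and 0.12 in controls and at 0.31, 0.16, 0.42 and 0.43 in CCH on its brightest probe. The groups did not overlap there, with a difference of 0.24 ± 0.09 (SE, limma adjusted p = 0.273), but its other probes were at 0.13 and -0.06. Eif4g3, a scaffold of the cap complex, was at 0.18 ± 0.09 (SE, limma adjusted p = 0.414) and at -0.07 on its other probe. Eif4b, which stimulates the helicase, was at 0.09 on its brightest probe, but A_44_P1033541 stood at 0.94, 0.87, 0.99 and 0.80 in controls and at 0.64, 0.68, 0.76 and 0.70 in CCH. That probe's groups were separate, at -0.21 ± 0.08 (SE, limma adjusted p = 0.278), so probes of Eif4b pointed in opposite directions. Eif4g2, a scaffold used without the cap, ranged from -0.04 to 0.27 over 5 probes, and Eif4h was at 0.11 ± 0.10 (SE), with control replicate 4 missing because its spot was marked as an outlier. Eif4g1 had no named probe here.

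Of the 3 genes for proteins that bind eIF4E, 2 were lower and 1 higher, with a median of -0.23. The binding proteins encoded by Eif4ebp1 and Eif4ebp2 hold eIF4E back when mTOR is quiet. Eif4ebp1 was at 2.01, 1.51, 1.80 and 1.46 in controls and at 1.46, 1.48, 1.41 and 1.52 in CCH. The CCH rats lay close together at the low end of a wide control range, with a difference of -0.23 ± 0.13 (SE, limma adjusted p = 0.455), and -0.08 on the other probe. Eif4ebp2, the main form in neurons, was at 0.39, 0.42, 0.48 and 0.56 in controls and at -0.85, 0.48, 0.54 and 0.60 in CCH. CCH replicate 1 alone set its difference of -0.27 ± 0.30 (SE, limma adjusted p = 0.730), which was 0.08 without that rat. Eif4enif1, which carries eIF4E into the nucleus and into messenger granules, was at 0.18 ± 0.09 (SE, limma adjusted p = 0.357) and -0.03 on its other probe. Eif5a, the hypusine-bearing factor that keeps ribosomes moving over difficult peptides, was at 0.00 with a 95% interval of -0.20 to 0.21.

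In elongation, the 6 genes with an Eef1 symbol split 3 to 3, with a median of -0.01. Eef1e1, one of the higher ones, is counted here by its name. Eef1a1, which delivers tRNAs in most cells, was at 6.18, 6.01, 6.02 and 6.01 in controls and at 6.16, 6.07, 5.96 and 6.06 in CCH. Its groups covered nearly the same range, with a difference of 0.01 ± 0.08 (SE, limma adjusted p = 0.984; 95% interval -0.19 to 0.20). Eef1a2, the form that takes over in mature neurons and muscle, was at 4.94, 5.14, 4.93 and 5.20 in controls and at 5.05, 5.07, 5.18 and 5.43 in CCH. The groups overlapped and differed by 0.13 ± 0.12 (SE, limma adjusted p = 0.653). Eef1g, the gamma subunit of the exchange complex that recharges eEF1A, was lower on all 3 probes, by -0.26 to -0.13. Its brightest probe stood at 6.19, 6.18, 6.19 and 6.32 in controls and at 5.90, 6.06, 6.03 and 6.10 in CCH. All CCH rats lay below all controls there, with a difference of -0.20 ± 0.08 (SE, limma adjusted p = 0.319). Probe A_44_P959572 also separated the groups, at -0.26 ± 0.10 (SE, limma adjusted p = 0.270), and A_44_P423786 did not, at -0.13 ± 0.11 (SE).

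Eef1b2, the beta subunit of the same exchange complex, was at 4.42, 4.48, 4.38 and 4.38 in controls and at 3.72, 4.27, 4.40 and 4.39 in CCH. Its difference of -0.22 ± 0.16 (SE, limma adjusted p = 0.554) was mostly that of CCH replicate 1 and stood at -0.06 without it. Eef1d, the delta subunit, was at -0.03 ± 0.11 (SE). Eef1e1, which belongs to the multi-synthetase complex and does not exchange nucleotides, was at 1.53, 1.81, 1.72 and 1.85 in controls and at 1.90, 1.86, 1.88 and 1.99 in CCH. The highest control lay just under the lowest CCH rat, and the difference was 0.18 ± 0.10 (SE, limma adjusted p = 0.416). Many of these genes have copies elsewhere in the genome. The GRCr8 gene table lists 20 pseudogenes named after Eef1a1, 16 after Eef1g, 10 after Eif4e and 8 each after Eif1 and Eif4a1. Probe sequences were not used here, so signal from such copies cannot be told apart from that of the parent gene.

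Messengers of elongation factors are known to begin with a tract of pyrimidines, the TOP motif, through which mTOR controls their translation. The letters CTTTT were searched on the transcribed strand from 15 bases before to 15 bases after the RefSeq start. They were found in 3 of 43 member genes (Eef1a1, Eef1b2 and Eif4a2), or 6.98%, and in 3.39% of all promoters. Only these exact letters were searched, so other pyrimidine tracts were not counted, and the share is not that of TOP messengers. Eef1d, Eif3e, Eif3h, Eif4b, Eif4e3 and Eif4ebp1 had no promoter entry and were not searched. The match began 1 base before the start in Eef1a1, at base 5 after it in Eef1b2 and 13 bases before it in Eif4a2. The Eif4a2 match thus lay outside the messenger as RefSeq places its start. Whether any match works as a TOP motif was not tested. The 30 bases around the start of both eEF1 genes (GRCr8, chr8:88225055-88225084, minus strand, and chr9:72074076-72074105, plus strand) have the match in capitals. They are shown to set it beside levels that did not pass the test:
Eef1a1: tcgccttggacgttCTTTTtcgcaacgggt
Eef1b2: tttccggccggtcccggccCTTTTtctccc

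Eef2, which acts in the translocation step, and its kinase were lower in CCH, as was the selenocysteine factor Eefsec on its brightest probe. These genes were lower by 0.11 to 0.24 on the log2 scale (median -0.13). Eef2k, the calcium- and calmodulin-dependent kinase that halts eEF2, stood at 1.73, 1.71, 1.89 and 1.64 in controls and at 1.62, 1.42, 1.43 and 1.54 in CCH. All CCH rats lay below all controls, narrowly so for CCH replicate 1, with a difference of -0.24 ± 0.09 (SE, limma adjusted p = 0.269). Eef2 was at 5.83, 5.90, 5.55 and 5.72 in controls and at 5.78, 5.59, 5.44 and 5.68 in CCH. Its groups overlapped, with a difference of -0.13 ± 0.11 (SE, limma adjusted p = 0.640). Eefsec, which delivers selenocysteine to selenoproteins such as the glutathione peroxidases, was at -0.11 ± 0.09 (SE) on one probe and 0.06 ± 0.12 (SE) on the other. Eef2kmt, which methylates eEF2, was at -0.16 ± 0.10 (SE, limma adjusted p = 0.485). The cAMP response element TGACGTCA, searched on both strands of the 250 bases before the start, was found in 1 of 43 member genes, Eef2, and in 1.59% of all promoters.

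**Figure D4:**
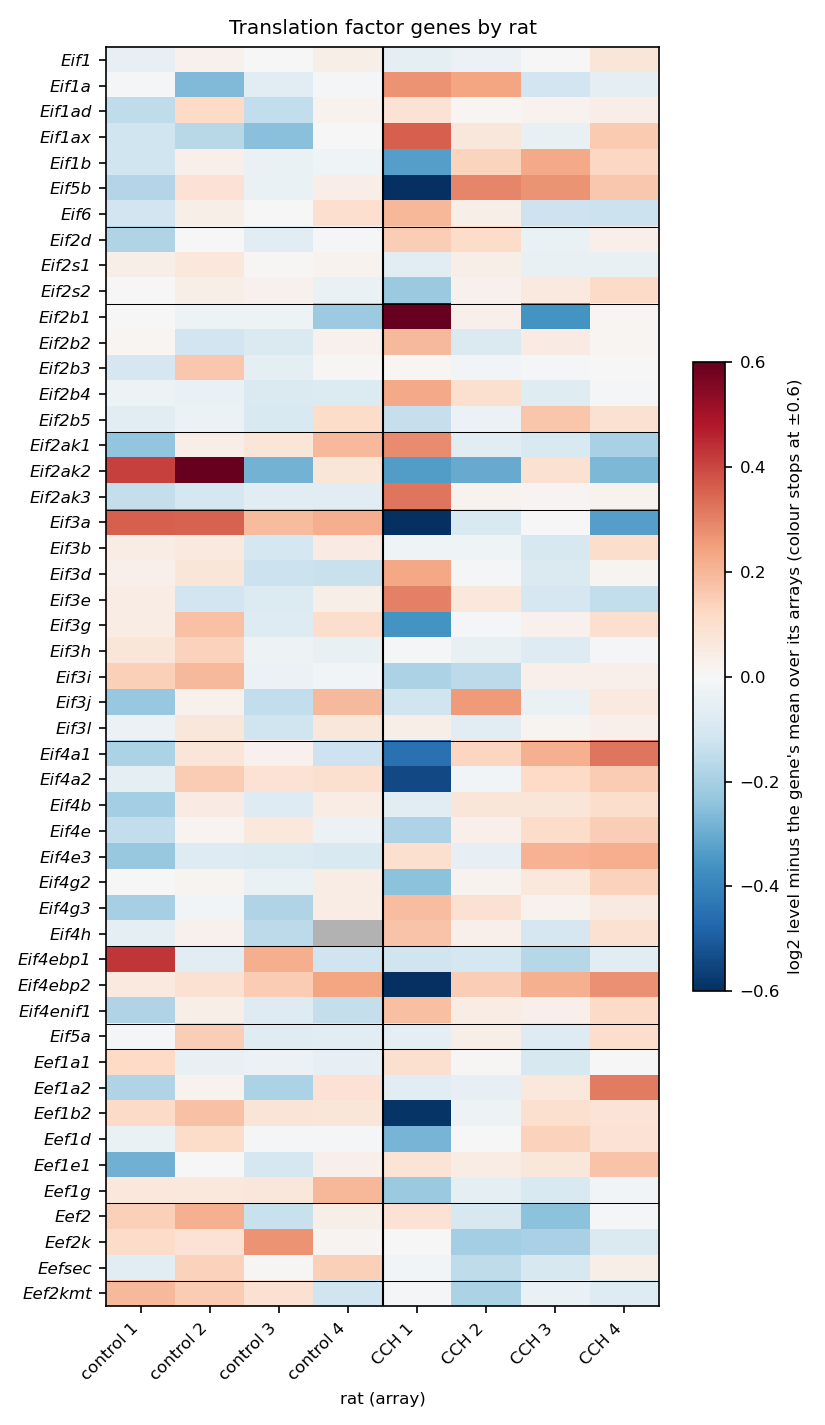
Deviation of each translation factor gene (brightest probe) from its own mean, for the 4 control and 4 CCH rats, in log2 units with the colour scale ending at 0.6 on either side. The grey cell is a missing value. The column of CCH replicate 1 holds most of the dark cells, and in the row of Eif3a the control cells are all above and the CCH cells all below the gene's mean or close to it.

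Probes of the same gene often differed in sign, in some genes with differences close to 0, as in Eif2b3 (-0.0036 and 0.035). Whether they differed by more than their errors was not tested. Of the 21 genes with several probes, all probes pointed one way in 10, 4 of them higher and 6 lower, and 11 held probes of both signs. The difference ranged over a median of 0.17 log2 units between the probes of a gene, beside a median SE of 0.10 for a single member gene.

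Genes that control these factors gave no call either. In the list of mTORC1 and cap-binding control 16 of 22 genes had a tested probe, with 7 higher and 9 lower, a median of -0.01, and 0 at an unadjusted limma p under 0.05. In the integrated stress response, the program set off by phosphorylated eIF2alpha, 10 were higher and 7 lower of 17, with a median of 0.09 (0.01 without CCH replicate 1). Its transcription factor gene Atf4 stood at 4.93, 5.13, 5.05 and 4.95 in controls and at 4.56, 4.71, 4.88 and 4.84 in CCH. The groups were separate, with a difference of -0.27 ± 0.10 (SE, limma adjusted p = 0.259). Atf3, a target of ATF4, was at -1.16, -0.88, -1.29 and -1.04 in controls and at -1.62, -1.61, -1.71 and -1.35 in CCH. These groups were separate too, at -0.48 ± 0.12 (SE, limma adjusted p = 0.125). Atf4 and Atf3 were the only 2 of the 17 genes whose groups did not overlap, against 11.1% of all tested named genes. The response element bound by ATF4, TGATGNAA, was found on either strand of the 250 bases before the start in 2 of 43 member genes, Eif2s2 and Eif3g, and in 3.40% of all promoters.

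Termination, recycling and rescue factors were higher for 7 and lower for 1 of 8, with a median of 0.16, and none reached an unadjusted limma p under 0.05 (0 of 8). Cytosolic aminoacyl-tRNA synthetases were higher for 11 and lower for 7 of 18, with a median of 0.06. CCH replicate 1 stood apart in this list, with a mean log2 deviation of 0.19. The other CCH rats ran from -0.07 to 0.002 and the controls from -0.07 to 0.01. Synaptic regulators of messenger translation were higher for 7 and lower for 4 of 11 (median 0.03, or 0.13 without CCH replicate 1). Fxr1, a relative of the fragile X protein, led them at -0.45 ± 0.14 (SE, limma adjusted p = 0.178), from 0.38 ± 0.16 (SD, n = 4) to -0.07 ± 0.23 (SD, n = 4). Mitochondrial translation factors split 4 to 1 of 5 around a median of 0.02, and the hypusine and diphthamide enzymes 2 to 2 of 4 around 0.07.

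**Figure D5:**
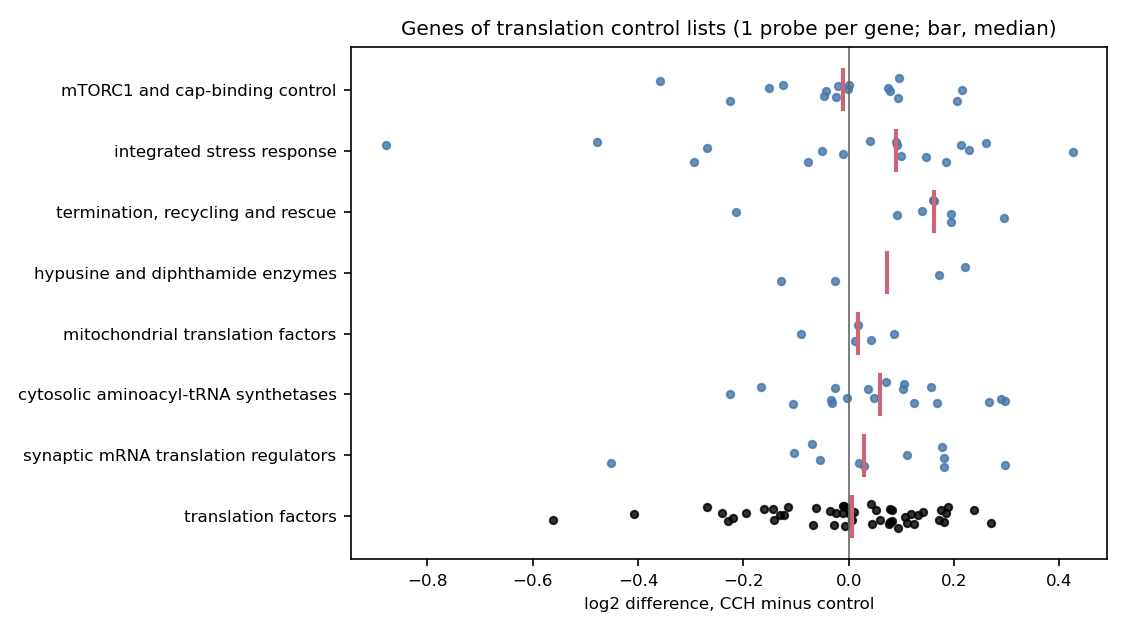
Log2 difference between CCH and control rats for each gene of 7 translation control lists and for the 49 translation factor genes, with 1 probe per gene. Red bars are medians, which run from -0.01 to 0.16, and the points of every list lie on both sides of 0.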

How the data were processed

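Hippocampal RNA of 8 rats was measured on Agilent arrays. The authors read the spots with Agilent Feature Extraction 9.5, per the file headers. Their deposited intensity is the processed signal, already background-subtracted and not yet scaled between arrays. Flags for detection and outlier spots, which are other values of 0 or 1, also come from the deposited files. The deposited value table holds that signal on its linear scale, uncentred, with a largest relative difference of 0.00498. Its column medians were 80.2, 63.2, 69.2 and 66.0 in control replicates 1 to 4 and 102, 85.3, 76.9 and 71.8 in CCH replicates 1 to 4.

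Gene names came from RefSeq accessions of the GRCr8 table, which named 15184 probes (37.0%); the array grid is on rn4, so no gene coordinates are given. Promoters came from RefSeq (GRCr8), matched by symbol for 43 of 49 genes; Eef1d, Eif3e, Eif3h, Eif4b, Eif4e3 and Eif4ebp1 had no entry.

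The log2 intensity minus each array's 75th percentile was averaged over spots of a probe, without marked spots. Tested were 31617 probes well above background on at least 4 of 8 arrays with 3 values per group. Feeds were compared with limma 3.58.1 in R 4.3.3 (two-sided, Benjamini-Hochberg over all tested probes, threshold 0.05), tested on simulated data. The brightest probe stood for a gene.

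Members, lists and tests were chosen with earlier results of these data known. Named were a core set of 17 genes (15 measured), the 8 leading genes per direction, genes with probes of opposite sign and a p under 0.05, and up to 3 leading genes per list; other members were named after their values were seen. A result on 1 listed gene is not reported here. Alternatives covered background correction (normexp on the median signal with offset 50), scaling, filters, marked spots, a replicate block, variance settings, array weights, the probe rule, the value table and leaving out each array. A slide or scan block could not be fitted, because it equals the feed.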

Additional observations from a re-analysis of the deposited data

Results flagged for a closer look

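In 6 of 70 groups of 4 rats among the named probes, 1 rat lay far from the other 3, where chance alone gives about 1 in 20 groups. The groups come from the same arrays, and some from probes of the same gene, so they are not independent. Whether the count exceeds chance was not tested. Eif4ebp2 (A_44_P757980) stood at -0.85 in CCH replicate 1, with the nearest CCH rat at 0.48. Eif2ak3 (A_44_P466200) stood at -2.14 in CCH replicate 1, with the nearest at -2.44. Eif2ak2 (A_42_P467037) stood at -0.26 in CCH replicate 3, with the nearest at -0.62. Eef1a1 (A_43_P12740) stood at 6.18 in control replicate 1, with the nearest control at 6.02. Eif4e3 (A_42_P526712) stood at -0.018 in control replicate 1, with the nearest at 0.12. Eef1g (A_44_P1001301) stood at 6.32 in control replicate 4, with the nearest at 6.19.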

How the results depend on the processing

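The count of 0 called member probes became 1 with normexp, with detection on all 8 arrays and with trend and robust settings, each time Eif3a (A_44_P312309, limma adjusted p of 0.0355, 0.0440 and 0.0336), and 2 with array weights, Eif3a and Eif1. Leaving out 1 array gave 0 to 2, the 2 without CCH replicate 1. Over all probes, 55 calls became 246 with normexp, 85 with the percentile of probes detected on all arrays, 29 with no detection filter, 209 with detection on all 8 arrays, 215 with trend and robust settings, 1339 with array weights and 0 without CCH replicates 2 and 4, a choice made after seeing the data. Leaving out 1 array gave 0 to 733 calls, 733 without CCH replicate 1 and 0 or 1 otherwise. The cause of these shifts was not tested.

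Replicate numbers were the positions on the slide and did not pair the rats: same-numbered rats' deviations correlated at 0.145, 0.0794, -0.00599 and 0.245. With the number as a replicate block 0 probes were called, members included (0 of 81).

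Some differences that were not called changed sign. Eef1a1 went to -0.0044 with median scaling, -0.0087 with the percentile of detected probes and -0.0097 with array weights. Eif5a went to -0.013 with quantile normalization, -0.0081 with median scaling, -0.012 with detected probes, -0.0013 in the value table and -0.067 without CCH replicates 2 and 4. Eif4ebp2 went to 0.017 with array weights. Without CCH replicates 2 and 4 Eif4a1 (A_43_P11246) was at -0.064, Eif4e at -0.012 and Eif6 at 0.032. With 1 array left out Eef1a1 ran from -0.026 to 0.046, Eif5a from -0.033 to 0.052, Eif6 from -0.077 to 0.032, Eif2b5 from -0.0068 to 0.095, Eif4a2 from -0.22 to 0.014 and Eif4ebp2 from -0.41 to 0.078.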
